A study of Sus scrofa with 6 samples.

Results

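The miRNAs described here are those of the miR-143, miR-145, miR-199, miR-214 and miR-126 hairpins, short RNAs best known from connective tissue, smooth muscle and blood vessel walls. They were taken by name from the deposited miRNA table of a study of pig milk, keeping every mature name whose base was miR-143, miR-145, miR-199a, miR-199b, miR-214 or miR-126, on either arm. This gave 9 of 221 mature names and 8 of 238 distinct sequences, since miR-199a-5p and miR-199b-5p were listed with one and the same sequence. The study sequenced small RNA from Rongchang pigs, a Chinese breed, in 3 libraries labelled milk and 3 labelled milk exosome, and its title sets the miRNAs of milk against those of its exosomes, the small membrane vesicles that cells release. No treatment, genotype or age of the sampled sows is given in the labels. Per the design text 3 randomly chosen individuals served as replicates, and nothing ties a milk library to an exosome library of the same animal. P-values below therefore measure the spread between these libraries.

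A miRNA is cut from a hairpin precursor, and either arm (5p or 3p) can be loaded into the silencing complex, where its seed, bases 2 to 8, pairs with target messenger RNAs. miR-143 and miR-145 are made from one primary transcript and are abundant in smooth muscle cells, pericytes and fibroblasts, where they favour the contractile state. miR-199a and miR-214 are transcribed together from the strand opposite DNM3 in mesenchymal cells, and miR-126 lies in an intron of EGFL7 and is the classical endothelial miRNA, also present in platelets. In the RefSeq gene table of assembly Sscrofa11.1, used here for names and neighbours only, MIR143 and MIR145 were each other's nearest miRNA gene, MIR214 and MIR199A-1 both lay within the span of DNM3, and MIR126 lay within EGFL7. MIR199A-2 lay within DNM2 and MIR199B within DNM1.

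The sequences are shown as listed in the deposited table, 5′ to 3′ with T for U and the seed in capitals, because the seeds define which targets a miRNA can pair with.
miR-143-3p: tGAGATGAagcactgtagctct
miR-145-5p: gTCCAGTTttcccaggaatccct
miR-145-3p: gATTCCTGgaaatactgttctt
miR-199a-3p: aCAGTAGTctgcacattggtt
miR-199a-5p: cCCAGTGTtcagactacctgttc
miR-214: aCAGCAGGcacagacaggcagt
miR-126-3p: tCGTACCGtgagtaataatgcg
miR-126-5p: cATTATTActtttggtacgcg

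The 8 sequences carried 8 different seeds, and no other sequence of the table had any of them. Clustered miRNAs thus differed in seed, as miR-143-3p and miR-145-5p did. The suffixes of several deposited names mark a length that differs from the reference miRNA, and that of the miR-199b-5p entry also marks base substitutions. The sequence shared by both names is therefore that of miR-199a-5p, and reference miR-199b-5p differs from it. The one of miR-145-3p marks a 5′ end that differs, so its seed is counted from the listed end. Lengths were 21 to 23 bases, with a median of 22 both for the members and for all sequences, and the median GC content was 45.5% against 50.0%. Of 4 short motifs searched on the listed strand, CCCT occurred in miR-145-5p and TGCA in miR-199a-3p, while GGAG and GGCT occurred in none. Of all 238 sequences, 16.4% held CCCT, 13.4% TGCA, 12.2% GGAG and 10.5% GGCT.

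The libraries differed in depth far more than the groups did. Taking the most frequent value above 0 as 1 read, milk 1 and milk exosome 3 held 9124580 and 8020867 read equivalents, and the other 4 libraries held 1901 to 9313. In milk 1 and milk exosome 3 the erythrocyte miRNAs held 90.5% and 89.9% of the signal of the listed sequences, and in the other libraries 2.92% to 12.5%. These deep libraries resembled each other although their labels put them in different groups, and results below are given with and without them. Of 12 epithelial and mammary miRNA names looked for, 5 were listed, and they took at most 1.26% of any library and 0.0011% and 0.0028% of the deep ones. In milk exosome 2, 4 of the 5 were listed at 0 and the list held 0.0256%, which is 1 read. The milk-abundant list, led by miR-21, took 7.75% to 25.6% of the shallow libraries and 1.30% and 1.53% of the deep ones. With 3 libraries against 3, an exact permutation test cannot go below p = 0.1.

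All 8 sequences together were a minor part of every library. They held 2.17% (exact 95% interval 1.75% to 2.64%) of the listed signal in milk 2 and 3.89% (3.07% to 4.86%) in milk 3. In milk exosome 2 they held 1.86% (1.47% to 2.34%) and in milk exosome 1 0.419% (0.298% to 0.572%). The deep libraries had the lowest shares, with 0.00873% (0.00814% to 0.00936%) in milk 1 and 0.0126% (0.0118% to 0.0134%) in milk exosome 3. Left out of the total, the erythrocyte miRNAs raised these shares to 0.0915% and 0.125%, still below the 0.438% to 4.35% of the shallow libraries. In read equivalents this was 39 to 94 reads in each shallow library and 797 and 1010 in the deep ones. These shares and reads count 1 line per sequence, although the miR-199 sequences stood on several lines. With every deposited line summed, the shares were 2.90% in milk 2, 5.48% in milk 3, 0.554% in milk exosome 1 and 2.86% in milk exosome 2. They were then 0.00927% in milk 1 and 0.0136% in milk exosome 3. Fewer cells of a type and less RNA per cell cannot be told apart in such bulk samples.

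**Figure D1:**
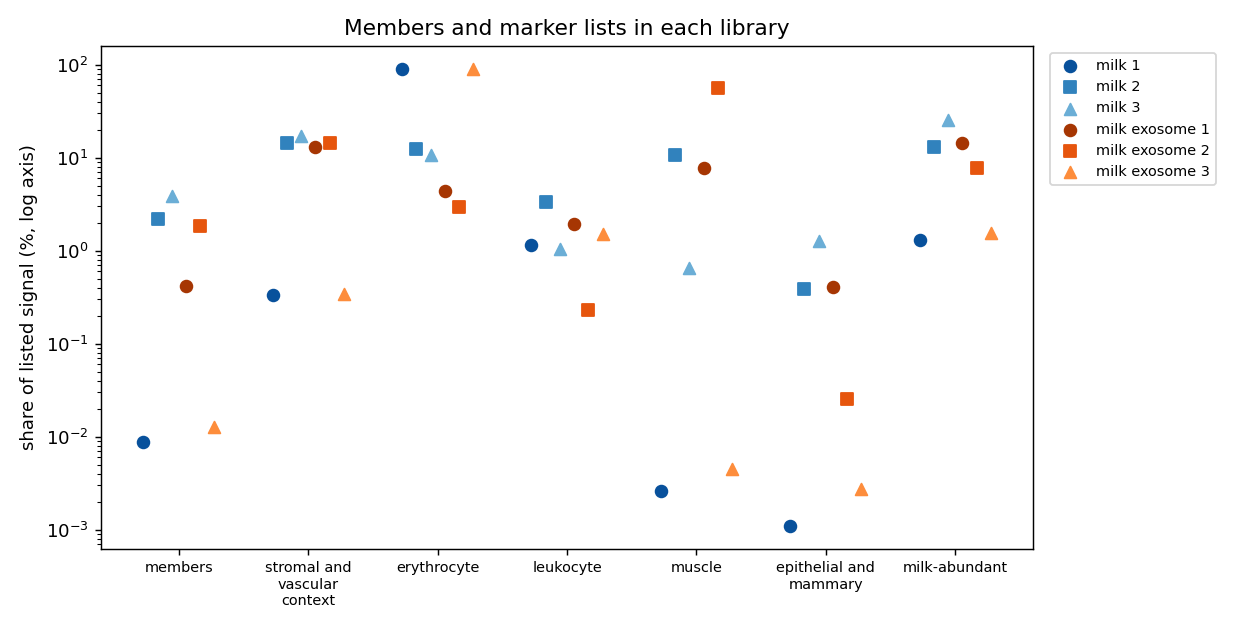
Share of the listed signal (%, log axis) held by the 8 sequences and by 6 marker lists, 1 point per library, milk in blue and milk exosome in orange. Counted on 1 line per sequence, the members sat at 0.419% to 3.89% in the shallow libraries. They were near 0.01% in milk 1 and milk exosome 3, where the erythrocyte list was near 90%.

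miR-143-3p was the member that leaned most towards milk. Milk 1, 2 and 3 had a normalized abundance of 5.24, 502 and 429, and milk exosome 1, 2 and 3 one of 63.0, 98.3 and 5.81. Both shallow milk libraries lay above both shallow exosome libraries, the deep libraries lay close together at the bottom, and the groups overlapped. How many of all tested entries were split so in the shallow libraries was not counted. Its log2 fold change, exosome minus milk on the log2(value + 1) scale, was -1.65 (SE 2.14, n = 3 per group, 95% interval -6.63 to 3.32) and did not pass (limma adjusted p = 0.997). In this comparison 0% of 141 tested entries were called. In the 4 shallow libraries alone the value was -2.54 (limma adjusted p = 0.974), resting on 35 and 31 reads in milk and 7 and 5 in exosomes. Without milk 1, which leaves the remaining deep library in exosomes, it was -3.73, and without milk exosome 3 it was -0.47.

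miR-145-5p, its partner in the cluster, did not follow it. The milk libraries held 2.89, 100.4 and 41.5 of it, and the exosome libraries 99.1, 197 and 5.62. Milk exosome 2 was highest, milk 2 and milk exosome 1 were nearly equal, and the groups overlapped. The log2 fold change was 0.99 (SE 2.03, 95% interval -3.72 to 5.70, limma adjusted p = 0.997), and it ran from -0.37 without milk 1 to 2.46 without milk exosome 3. miR-145-3p, the opposite arm, was listed at 28.7 in milk 2, which is 2 reads, and at 0.0937 in milk exosome 3, which is 1 read. It was listed at 0 in the other 4 libraries and failed the filter on low values that the other 7 sequences passed. In milk 3, milk exosome 1 and milk exosome 2 a count of 0 allows up to 3 reads, worth 41.5, 27.0 and 59.0, so the weak arm was not detectable there at this depth. In milk 1, also at 0, the same 3 reads are worth only 0.228, and miR-145-5p had 38 reads.

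**Figure D2:**
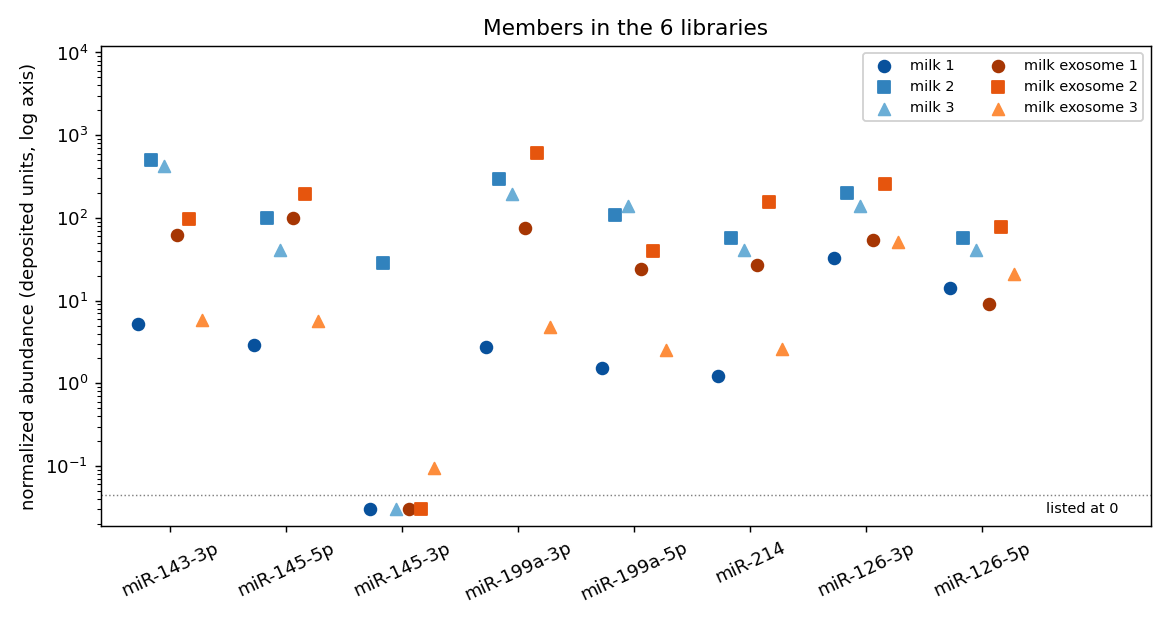
Normalized abundance (deposited units, log axis) of the 8 sequences in the 6 libraries, milk in blue and milk exosome in orange, with values of 0 drawn below the dotted line. miR-143-3p is at 502 and 429 in milk 2 and milk 3 and at 63.0 and 98.3 in milk exosome 1 and 2, while both miR-126 arms stand highest among the members in milk 1 and milk exosome 3.

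The ratio of miR-143-3p to miR-145-5p within a library does not depend on how libraries are scaled, and for it the groups did not overlap. It was 1.82, 5.0 and 10.3 in milk 1, 2 and 3 and 0.636, 0.500 and 1.03 in milk exosome 1, 2 and 3. All 3 milk libraries thus had more miR-143-3p than miR-145-5p, and no exosome library reached the lowest milk ratio. The mean log2 ratio was 2.18 ± 1.26 (SD, n = 3) in milk and -0.53 ± 0.53 in exosomes. The intervals of milk 2 (2.19 to 13.3) and milk 3 (3.22 to 52.8) lay above those of milk exosome 1 (0.209 to 1.80) and milk exosome 2 (0.134 to 1.61). The deep libraries lay closer, with milk 1 at 1.21 to 2.77 and milk exosome 3 at 0.713 to 1.499, and these intervals overlapped. Among the ratios of any pair of the 82 tested sequences above 0 in all 6 libraries, 1.02% of 3321 had groups that did not overlap. This share does not measure how unusual the ratio is, since an exact permutation test of 3 against 3 libraries cannot go below p = 0.1. The part of the deep and shallow split in the share was not tested. The ratios given here were not tested.

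Counted on 1 of its 3 identical lines, miR-199a-3p had the highest mean of the members over the 6 libraries, 196 against 184 for miR-143-3p. On 1 line this order rests on milk exosome 2, without which the means were 115 and 201. With the 3 lines summed, miR-199a-3p lay above miR-143-3p in all 6 libraries. It was then at 889 against 502 in milk 2 and at 581 against 429 in milk 3. On 1 line its values were 2.78, 296 and 194 for milk and 75.1, 603 and 4.87 for exosomes. Milk exosome 2 held the highest value and milk exosome 1 the lowest of the shallow libraries, so among these the exosome values spanned the milk values. Milk 1 was lowest of all 6. The log2 fold change was 0.10 (SE 2.38, 95% interval -5.42 to 5.62, limma adjusted p = 0.997). It was -0.64 after rescaling to a common total, which moved the median of all tested entries from 0.34 to -0.30, and ran from -1.90 without milk 1 to 1.83 without milk exosome 3. Without milk exosome 2 it was -1.51.

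miR-199a-5p, from the other arm of the same hairpins, looked more like miR-143-3p. Values of 1.52, 109.9 and 138 were listed for milk and of 24.0, 39.3 and 2.53 for exosomes. Again both shallow milk libraries lay above both shallow exosome libraries, and the deep ones were lowest, so the groups overlapped. The values of milk exosome 1 and 2 are 2.67 and 2 reads on the line used, and 8 and 6 reads over the 3 lines of this sequence. Only on the line used do they lie below what 3 reads are worth there, 27.0 and 59.0. How common such a split is among all tested entries was not counted. The log2 fold change was -1.15 (SE 2.13, 95% interval -6.09 to 3.79, limma adjusted p = 0.997), and -1.97 in the shallow libraries alone (adjusted p = 0.974). It was -3.03 without milk 1, -0.30 without milk 2, -0.13 without milk 3 and -0.09 without milk exosome 3.

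miR-214, which shares its primary transcript with miR-199a, had values of 1.21, 57.4 and 41.5 for milk and 27.0, 157 and 2.62 for exosomes. It was highest in milk exosome 2, as was miR-199a-3p, and the groups overlapped. Its log2 fold change was 0.52 (SE 2.14, 95% interval -4.45 to 5.48, limma adjusted p = 0.997). The value was -0.24 after rescaling to a common total, -0.98 without milk 1, -0.81 without milk exosome 2 and 1.92 without milk exosome 3.

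The level of miR-199 against the other members depends on how its lines in the table are counted. miR-199a-3p stood on 3 identical lines, and the sequence of miR-199a-5p on 3 lines under both of its names, while each of the other 6 members had 1 line. In units of 1 read, single lines of miR-199a-3p were not whole numbers in 4 of 6 libraries, and those of miR-199a-5p in 2 of 6. With the 3 lines summed both were whole in all 6, within 0.01 reads, as the other members were on their 1 line. Summed, miR-199a-3p came to 110, 62 and 42 reads in milk and 25, 92 and 156 in exosomes. It then ranked first among the members in all 4 shallow libraries. Counted on 1 line it was first in milk exosome 2, behind miR-143-3p in milk 2 and milk 3 and behind miR-145-5p in milk exosome 1. Values below are for 1 line unless said otherwise, and fold changes of a miRNA between libraries are affected only through the added 1.

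The ratio of miR-199a-3p to miR-214 stayed between 1.86 and 5.17. Of the 3 MIR199 genes, only MIR199A-1 lay with MIR214 in DNM3. The miR-199 values are not split by gene, so the ratios to miR-214 are not strictly within a cluster. It was 2.29, 5.17 and 4.67 in milk and 2.78, 3.83 and 1.86 in exosomes. All 6 libraries had more miR-199a-3p, their intervals overlapped, and the mean log2 ratio was 1.93 ± 0.64 (SD, n = 3) in milk and 1.44 ± 0.52 in exosomes. The ratio of miR-199a-5p to miR-214 was 1.25, 1.92 and 3.33 in milk and 0.889, 0.250 and 0.964 in exosomes. Its groups did not overlap, but the intervals on 1 line did, with 0.858 to 18.8 in milk 3 and 0.0259 to 1.25 in milk exosome 2. Of the 5 cluster and arm ratios with values in all 6 libraries, 2 had groups that did not overlap. The share over all pairs of tested sequences above 0 in all 6 libraries was 1.02% of 3321. Summing the 3 lines of miR-199 multiplies each of these ratios by 3 and narrows the intervals. That of milk 3 was then 3.11 to 51.2 and lay above that of milk exosome 2, 0.214 to 2.46, while the intervals of milk 1 (2.13 to 6.98) and milk 2 (1.96 to 22.9) overlapped those of all 3 exosome libraries. For miR-199a-3p to miR-214 all intervals still overlapped.

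The 3p arm of miR-199a exceeded the 5p arm in every library. As the values are not split between the MIR199 genes, this is not the arm ratio of a given hairpin. The ratio was 1.83, 2.70 and 1.40 in milk and 3.13, 15.3 and 1.93 in exosomes. Milk exosome 2 stood apart with 92 reads of the 3p arm and 6 of the 5p arm over all lines. Its interval on those reads, 6.78 to 42.9, lay above the intervals of milk 1 (1.33 to 2.55), milk 2 (1.65 to 4.56), milk 3 (0.856 to 2.32) and milk exosome 3 (1.46 to 2.55). It overlapped that of milk exosome 1 (1.37 to 8.02), and the groups overlapped.

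**Figure D3:**
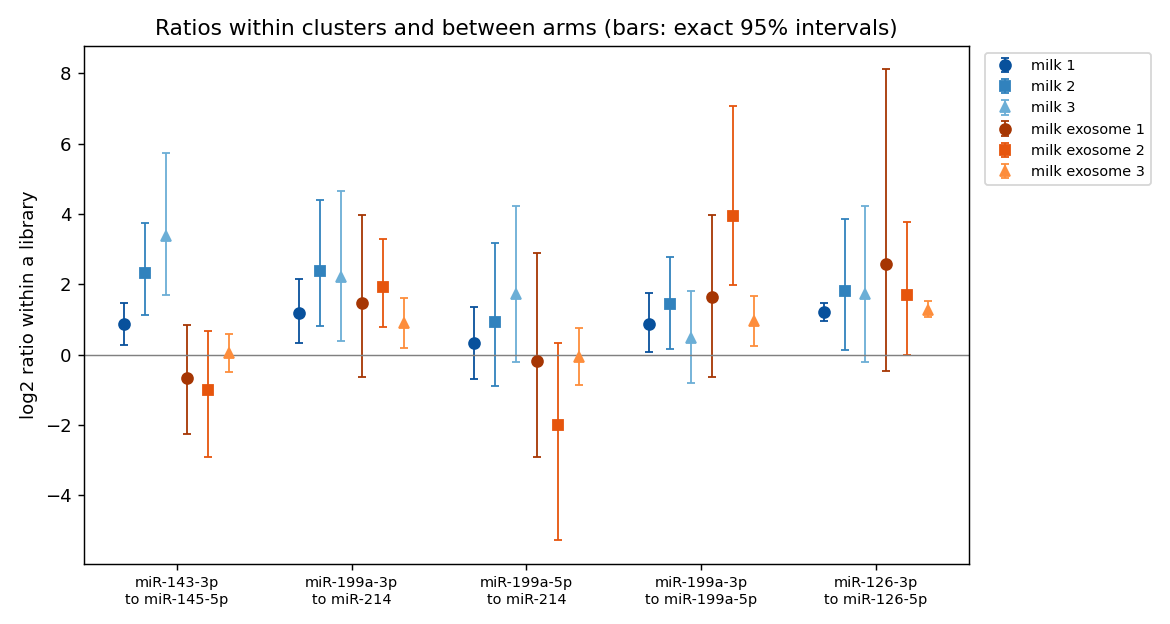
Log2 ratio of members within each library, 1 point per library with exact 95% intervals on read equivalents, milk in blue and milk exosome in orange. The ratio of miR-143-3p to miR-145-5p runs from 1.82 to 10.3 in milk (log2 0.86 to 3.37) and from 0.500 to 1.03 in exosomes (log2 -1.0 to 0.05), while the miR-126 arms keep a similar ratio throughout.

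miR-126-3p, the endothelial miRNA that supports VEGF signalling by repressing SPRED1 and PIK3R2, varied less between libraries than the members of the other clusters. The milk libraries had 32.7, 201 and 138, and the exosome libraries 54.0, 256 and 51.8. Milk exosome 1 and milk exosome 3 were nearly level despite their depths, 6 reads standing behind the one value and 553 behind the other. The log2 fold change was -0.11 (SE 1.41, 95% interval -3.39 to 3.16, limma adjusted p = 0.997), from -0.89 without milk 1 to 0.41 without milk 2. It was 0.14 without milk 3, 0.25 without milk exosome 1, -0.86 without milk exosome 2 and 0.28 without milk exosome 3.

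miR-126-5p, the opposite arm, followed the 3p arm. Milk libraries had 14.2, 57.4 and 41.5 and exosome libraries 9.01, 78.6 and 21.3, the lowest value resting on 1 read. The log2 fold change was -0.36 (SE 1.61, 95% interval -4.10 to 3.37, limma adjusted p = 0.997), and it moved between -1.17, with milk exosome 2 left out, and 0.33, with milk exosome 1 left out. The ratio of the 3p to the 5p arm was 2.30, 3.50 and 3.33 in milk and 6.0, 3.25 and 2.44 in exosomes. The best measured ratios, 2.30 (1.93 to 2.75) in milk 1 and 2.44 (2.08 to 2.86) in milk exosome 3, lay within the intervals of all 4 shallow libraries.

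**Figure D4:**
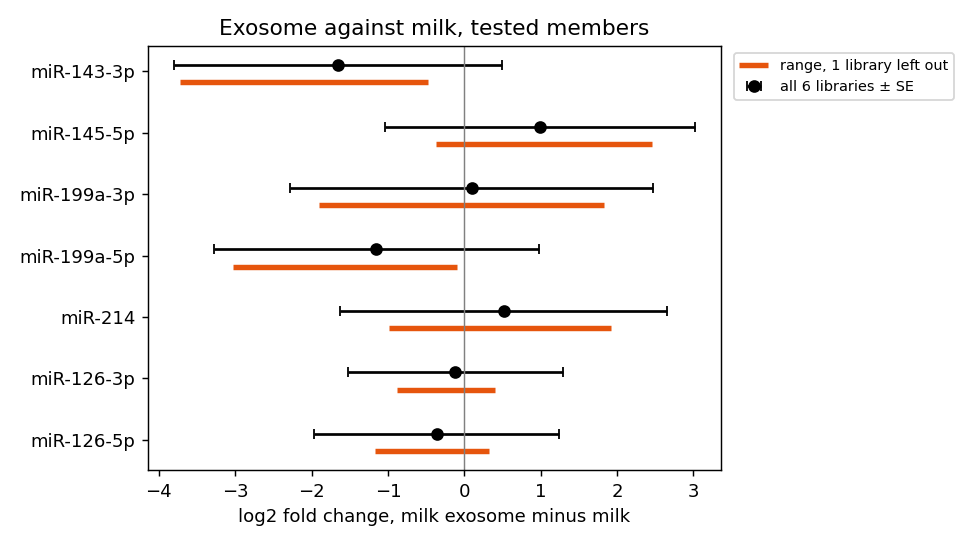
Log2 fold change of the 7 tested members, milk exosome minus milk, as black points with the SE (n = 3 per group), and the range with 1 library left out in turn as orange bars. miR-143-3p at -1.65 and miR-199a-5p at -1.15 keep a negative sign with each library left out, and the bars of the other 5 members cross 0.

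Over the list, 3 of 7 tested members had a positive and 4 a negative log2 fold change, with a median of -0.11 against 0.34 for all 141 tested entries. In the 4 shallow libraries alone the values not yet given were 1.10 for miR-145-5p, -0.17 for miR-199a-3p, 0.42 for miR-214, -0.50 for miR-126-3p and -0.82 for miR-126-5p. None was called by limma (0 of 7 at an unadjusted p under 0.05 as well, as for all 141), and the groups overlapped for all 8 sequences, where 1.42% of tested entries had groups that did not. The 95% intervals above reach from at least 3 log2 units below 0 to at least 3 above it for each tested member, so differences of several-fold in either direction are compatible with these libraries.

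The make-up of the members differed between the deep and the shallow libraries. Both miR-126 arms made up 77.4% of the members' signal in milk 1 and 77.2% in milk exosome 3, and 17.6% to 23.4% in the shallow libraries. With all lines of miR-199 summed these shares were 67.8% and 66.8% against 10.7% to 12.3%. miR-126-3p was 11.7 times miR-199a-3p in milk 1 (8.30 to 16.7) and 10.6 times in milk exosome 3 (7.99 to 14.4), while in the shallow libraries the ratio was 0.424 to 0.720. With all lines of miR-199a-3p summed it came to 3.91 (3.16 to 4.86) for milk 1, 3.54 (2.96 to 4.26) for milk exosome 3 and 0.141 to 0.240 for the other libraries. miR-126-3p was 6.23 times miR-143-3p in milk 1 and 8.92 times in milk exosome 3. It was 0.400 and 0.323 times in milk 2 and milk 3 and 0.857 and 2.60 times in milk exosome 1 and 2. The erythrocyte list moved with this split, from 2.92% to 12.5% of the shallow libraries to about 90% of the deep ones, and the leukocyte list held 1.16% and 1.52% of the deep and 0.230% to 3.36% of the shallow libraries. Their part in the make-up was not tested. Depth class was set from the values and holds 1 library of each group, so no test is given.

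**Figure D5:**
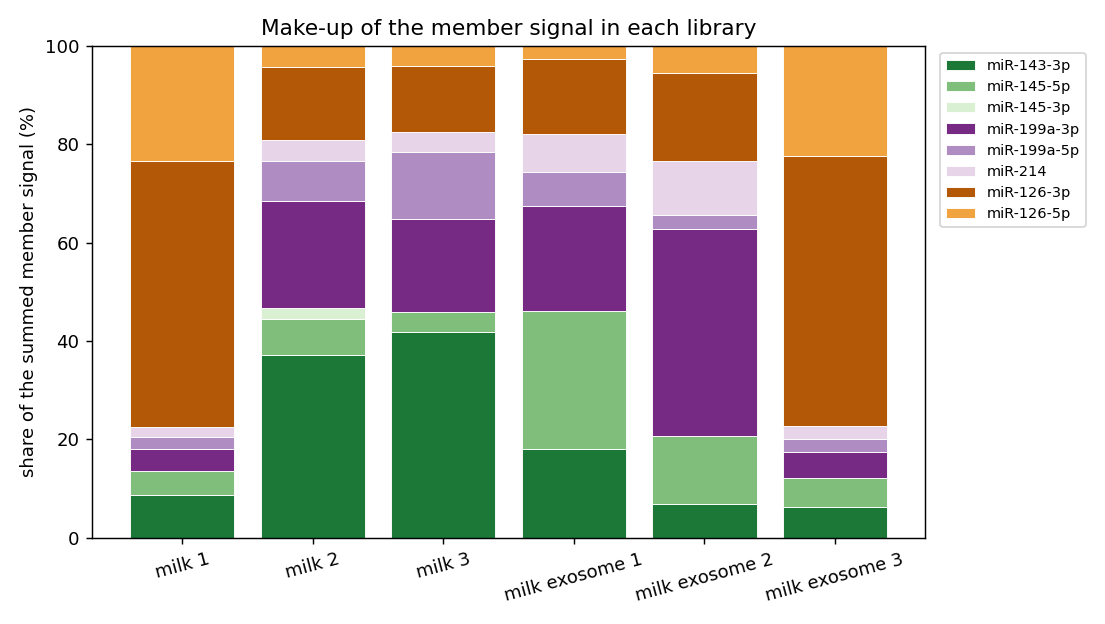
Share of the summed signal of the 8 sequences (%) that each took in each library, counted on 1 line per sequence. miR-126-3p and miR-126-5p together take 77.4% of milk 1 and 77.2% of milk exosome 3, and at most 23.4% of any shallow library.

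Between the deep libraries themselves, every member above 0 in both was higher in milk exosome 3 than in milk 1, as were 63.4% of the 134 tested sequences above 0 in both, whose median log2 difference was 0.19. The log2 differences were 0.15 for miR-143-3p, 0.96 for miR-145-5p, 0.81 for miR-199a-3p and 0.74 for miR-199a-5p. They were 1.11 for miR-214, 0.67 for miR-126-3p and 0.58 for miR-126-5p. As a share of the library miR-143-3p was level, at 0.000756% (0.000588% to 0.000957%) in milk 1 and 0.000773% (0.000593% to 0.000991%) in milk exosome 3. With 1 deep library per group these differences have no replicate check.

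The profiles most like each member over the 6 libraries were found by the root mean square difference of log2(value + 1) after centring, where 0 is an identical course. For miR-199a-3p the 5 nearest were miR-30a-3p (0.56), miR-214 (0.65), miR-125a (0.73), miR-365-3p (0.92) and miR-149 (0.95), against a median of 3.54 for all tested miRNAs. miR-143-3p and miR-199a-5p were each other's nearest at 0.38, closer than miR-143-3p was to miR-145-5p (1.56) or miR-199a-5p to miR-199a-3p (1.17). miR-145-5p was nearest to miR-149 (0.36) and miR-365-3p (0.52), and miR-214 to miR-30a-3p (0.50) and miR-149 (0.53). The miR-126 arms were each other's nearest at 0.43, followed by miR-99a at 0.43 from the 3p and 0.57 from the 5p arm. What part the split into deep and shallow libraries had in these distances was not tested.

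A list of other miRNAs, drawn up as stromal and vascular context, was counted beside the members. Whether their signal came from such cells was not tested. Of the 18 names on that list 16 were found, in 19 sequences of which 15 were tested, and 9 had a positive and 6 a negative log2 fold change with 0 called. Their median of 0.34 equalled that of all tested entries, as both medians are the value of miR-99a. The list took 13.0% to 17.3% of the shallow libraries and 0.331% and 0.342% of the deep ones. Log2 fold changes of its most abundant members were 2.09 for miR-10b, -1.58 for miR-221-3p, 0.46 for miR-29a and 0.34 for miR-99a, with SEs of 2.72, 2.95, 1.004 and 1.15 and a limma adjusted p of 0.997 each. The muscle list had 6 of 6 tested members with a positive log2 fold change, against 84 of all 141 tested entries. Its median was 3.23, with miR-1 at 3.56 (SE 3.77) and 0 called. The muscle list took 55.6% of milk exosome 2, where miR-145-5p, miR-199a-3p, miR-214 and both miR-126 arms had their highest abundance. It took 10.7% of milk 2, where miR-143-3p was most abundant, and 0.658% of milk 3, where miR-199a-5p was. In milk exosome 1, where no member had its highest abundance, the muscle list took 7.82%. The part of muscle RNA in these values was not tested. The most abundant of the other lists were miR-451 (erythrocyte), miR-142-5p (leukocyte), miR-205 (epithelial and mammary) and miR-21 (milk-abundant), with log2 fold changes of -4.20, -0.57, 0.16 and -0.17, and 0 entries of any list were called. In this order of lists, 1, 1, 1 and 5 tested members had a positive value and 4, 4, 2 and 3 a negative one. The medians were -1.07, -0.26, -1.50 and 0.23, so miR-205 and miR-21 had the opposite sign to their lists.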

How the data were processed

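Per the labels' protocols, Trizol RNA was made into TruSeq small RNA libraries and read from one end over 36 bp. The values are a signal deposited by the authors, a normalized abundance per miRNA. For the aligner, annotation, normalization and filters the sources used here give nothing, and replicates were not pooled. Of 279 lines, 34 exact repeats were dropped, which left 245 entries with 238 sequences. A second sheet has 6 columns whose names match no label, and they were not used. Names were matched on the mature name alone, leaving off prefix and length suffix.

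Read equivalents are values divided by the most frequent value above 0. Single lines were whole multiples of it, within 0.01 reads, for 70.4% to 88.0% of values, and 77.8% to 94.4% after multiplication by the number of lines of the sequence, so whole reads were not recovered throughout and no count model was used. Exact Clopper-Pearson intervals at 95% and floors of 3 reads cover counting error only. Libraries were called deep or shallow at the geometric middle of the range of read equivalents.

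Exosome and milk were compared with limma 3.58.1 in R 4.3.3, with a trend, on log2(value + 1) of the 141 entries that reached 10 in 3 or more of the 6 libraries, with Benjamini-Hochberg adjustment over all of them and a threshold of 0.05. The fit was tested on simulated data whose spread was far smaller than the median residual SD of 2.50 in these libraries. That run therefore does not show what the fit can call here. Other steps used Python 3.11.15, numpy 2.4.6, pandas 2.3.3, scipy 1.17.1 and matplotlib 3.10.9. All members are named, with the 5 profiles nearest to the most abundant member, the 2 nearest to each other member, the 4 most abundant miRNAs of the stromal list and the most abundant of each other list. Members and lists were chosen with earlier results of these data known. The alternatives were a replicate block, other scalings, filters and pseudocounts, no trend, summed names, a depth term, the shallow libraries alone and each library left out. Summing every deposited line was added after the data were seen.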

Additional observations from a re-analysis of the deposited data

How the results depend on the processing

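No entry was called under any of the 17 alternatives, with 0 to 5 entries at an unadjusted limma p under 0.05. Of 114 recomputed fold changes of members, 97 kept their direction and 17 did not, 12 of these with 1 library left out, and the smallest adjusted p was 0.912. The 97 include settings that left each member's fold change the same by construction. These were the replicate block, the depth term, no trend, other filters and summed names. With 1 library left out the log2 fold changes ran from -3.73 to -0.47 for miR-143-3p, -0.37 to 2.46 for miR-145-5p, -1.90 to 1.83 for miR-199a-3p, -3.03 to -0.09 for miR-199a-5p, -0.98 to 1.92 for miR-214, -0.89 to 0.41 for miR-126-3p and -1.17 to 0.33 for miR-126-5p. miR-199a-3p turned to -0.64 after rescaling to a common total, -0.013 after recentring on the median, -0.014 with a pseudocount of 10 and -0.17 in the shallow libraries alone. miR-214 turned to -0.24 after rescaling. The cause was not tested. With the replicate number as a block, 0 entries were called. A balanced block cannot change the fold changes of members (0.10 for miR-199a-3p). Deviations of libraries with one number correlated at -0.25, 0.39 and -0.48. Numbers 1 and 3 each set a deep against a shallow library, so these values cannot show whether the numbers pair animals. The labels give no pairing, and none was assumed. Without the erythrocyte list the members' share was 0.0915% in milk 1 and 0.125% in milk exosome 3. With every deposited line summed it was 2.90% in milk 2, 5.48% in milk 3, 2.86% in milk exosome 2 and 0.0136% in milk exosome 3. The same summing took the log2 ratio of miR-199a-3p to miR-214 to 2.78 in milk 1, 3.52 in milk exosome 2 and 2.48 in milk exosome 3, and that of miR-199a-5p to miR-214 to 1.91 in milk 1 and 1.53 in milk exosome 3. In the shallow libraries members rest on at most 35 reads a line, which limits every value there.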
